A study of Mus musculus with 6 samples.

Results

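The 34 genes described here encode the proteins of blood coagulation and fibrinolysis. They were chosen by name, with earlier results of these data known, from 18253 gene symbols in liver RNA sequencing tables. Each of the 34 was listed in all 6 libraries. They comprise 17 clotting factors and contact-phase genes, 2 genes of the vitamin K cycle, 9 anticoagulants and 6 genes of fibrinolysis. The livers came from C57BL/6 mice labelled as postnatal day 21. All animals had been given alpha-naphthylisothiocyanate (ANIT), a chemical toxic to bile duct cells that causes cholestasis. The livers of 3 libraries came from mice given ANIT without celastrol, and those of the other 3 from mice given ANIT with celastrol, an anti-inflammatory triterpenoid of plants, over 5 days. The sources used here give no doses, and neither group is free of ANIT, so no value below is a comparison with an uninjured liver. Nothing in the labels says that the 3 libraries of a group are from different animals, and the p-values then measure only the spread between these libraries, which may be technical.

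Most proteins of the coagulation cascade are made by hepatocytes and secreted into plasma. Tissue factor with factor VII starts the cascade, factor X with its cofactor factor V turns prothrombin into thrombin, and thrombin turns fibrinogen into fibrin. Several of these proteases, and proteins C, S and Z, bind membranes only after a vitamin K-dependent carboxylation. Antithrombin, heparin cofactor II and the protein C and protein Z systems restrain the cascade, and plasmin, made from plasminogen, dissolves the clot.

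Values are FPKM, that is fragments counted per gene and scaled for gene length and library size, so that levels can be compared between genes of a library. Their sum ran from 532840 to 546155 with ANIT and from 582233 to 601233 with celastrol. Comparisons between libraries can therefore depend on the scaling, and results under other scalings are given below. The estimated depth was 18940000 to 19840000 reads per library, at which 1 FPKM of a 1-kilobase transcript is 18.9 to 19.8 reads. A gene was tested where it reached 1 FPKM in at least 3 libraries, which held for 10593 genes and for 28 of the 34. Celastrol replicate 2 stood apart from the other celastrol libraries. Its 10 highest genes made up 20.7% of all FPKM, against 33.2% and 31.5% in celastrol replicates 1 and 3 and 20.3 to 21.9% with ANIT. Markers of the labelled tissue were abundant: the 7 hepatocyte markers summed to 37755 to 49612 FPKM with ANIT and 12241 to 18535 FPKM with celastrol. Of these 7, Alb (albumin) fell, from a mean of 32513 to 6985 FPKM (adjusted p in limma = 0.0024), 5 did not pass, and Tf was not listed under that symbol. Hnf4a, a hepatocyte transcription factor, measured 190.1 ± 13.6 and 204.9 ± 13.9 FPKM (SD, n = 3 each). The 5 neutrophil markers summed to 30.8 to 54.0 FPKM with ANIT and 64.0 to 88.7 FPKM with celastrol, and 3 of the 4 tested rose. The 5 cholangiocyte markers summed to 38.8 to 46.2 FPKM and 16.2 to 44.7 FPKM, a sum made up mostly of Spp1 (means of 35.7 and 28.3 FPKM). Of the 3 tested, Krt19 was lower, at 1.46 and 0.447 FPKM (adjusted p in limma = 0.014, having reached the filter through the ANIT libraries alone), and Krt7 and Epcam, below the filter, were lower without overlap. None of the 5 tested stellate cell markers passed, and all 8 of that list summed to 20.3 to 37.8 FPKM and 15.6 to 53.9 FPKM. Their part in the results below was not tested.

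Levels of the 34 genes differed widely within a liver. Fgb, Fgg and Fga, the chains of fibrinogen, took the top 3 places in each group, followed by the kininogen gene Kng1 and the plasminogen gene Plg. With ANIT their mean levels ran from 4498 FPKM for Fgb to 1057 FPKM for Plg. The order of Serpinc1, F2 and Hrg, at 933.8, 718.0 and 682.6 FPKM with ANIT, became Hrg, F2 and Serpinc1 with celastrol, at 1000.4, 909.5 and 792.7 FPKM. With ANIT the range of Hrg, 607.3 to 783.4 FPKM, held that of F2, 707.6 to 732.2 FPKM, while Serpinc1, at 885.8 to 961.4 FPKM, overlapped neither. With celastrol Serpinc1, at 720.6 to 870.4 FPKM, lay below F2, at 873.0 to 967.3 FPKM, again without overlap, but overlapped Hrg, at 831.7 to 1296 FPKM. Serpina10 moved furthest up the order, from place 16 to place 11. Klkb1 and Vkorc1 each went down by 4 places, from 21 to 25 and from 13 to 17, as did Serpind1, from 12 to 16. At the lower end, F3, F8, F13a1, Procr, Plat and Plau lay between 0.04 and 1.49 FPKM in every library and did not reach the filter.

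Of 14 tested clotting factors and contact-phase genes, 7 rose with celastrol and none fell. Of 8 tested anticoagulants, 2 rose and 2 fell, of 4 tested fibrinolysis genes 1 rose, and neither gene of the vitamin K cycle passed. In all, 10 of the 28 tested genes rose and 2 fell (limma, adjusted p under 0.05). Of the latter 2, Thbd reached the filter through its ANIT libraries alone, so its count among the genes that fell carries no weight of its own. Among all tested genes, 25.0% passed, with 4.41% higher and 20.6% lower. The median log2 fold change of the 28 was 0.31, beside -0.17 for all tested genes. The groups did not overlap for 15 of the 28 that were higher with celastrol and 5 that were lower, where 8.35% and 36.6% of all tested genes did so. Thbd is among these 5, and its lack of overlap follows from the filter, so it carries no weight there either. By role, the median log2 fold change was 0.41 for clotting factors, -0.37 for the vitamin K cycle, 0.12 for anticoagulants and 0.47 for fibrinolysis. The plot of fold changes by role shows the single genes.

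**Figure D1:**
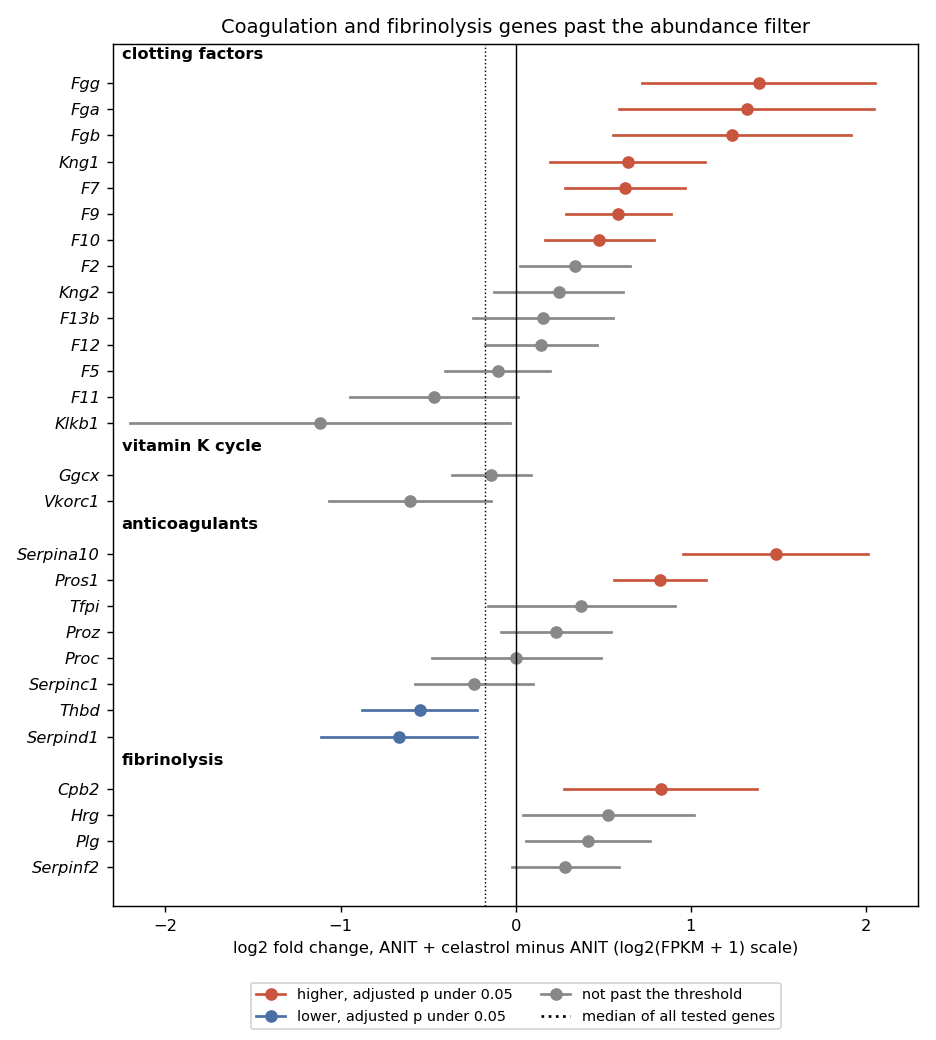
Log2 fold change (x axis, ANIT plus celastrol minus ANIT, on the log2(FPKM + 1) scale) of the 28 tested genes (y axis), with 95% confidence intervals from limma and n = 3 libraries per group. The 7 clotting factor genes that rose include the fibrinogen chains, at 1.24 to 1.39. Anticoagulants lie on both sides of 0, from -0.67 for Serpind1 to 1.48 for Serpina10.

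The counts depended on scaling and on single libraries. Dividing by median-ratio size factors gave 14 higher and 0 lower, where 7.49% of all tested genes were higher and 18.5% passed in either direction (793 higher, 1170 lower). Quantile normalization gave 6 higher and 1 lower, where 873 and 952 of all 10593 tested genes were so. Leaving out ANIT replicates 1, 2 and 3 gave 5, 2 and 5 higher and 0 lower each time. Among all tested genes 296, 255 and 312 were then higher and 1189, 911 and 1432 lower. Leaving out celastrol replicates 1, 2 and 3 gave 2, 12 and 6 higher and 0, 4 and 0 lower. Among all tested genes 196, 476 and 362 were then higher and 921, 3334 and 1315 lower. The fits with 1 library left out tested 10391 to 10483 genes. The 7 clotting factor genes that rose were 3 after quantile normalization. Omitting ANIT replicates 1, 2 and 3 in turn gave 3, 0 and 3 such genes, and omitting celastrol replicates 1, 2 and 3 in turn gave 0, 7 and 4. Of the 12 calls, only those of Pros1 and Serpina10 held under all 12 alternatives.

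Fibrinogen is the soluble precursor of the fibrin clot and a classic acute phase protein of the liver. Its chains are encoded by Fga (alpha), Fgb (beta) and Fgg (gamma), and all 3 genes rose between 2.41- and 2.69-fold. Fga measured 3709.9, 2876 and 2578 FPKM in ANIT replicates 1, 2 and 3 and 9213, 4679.9 and 9945 FPKM in celastrol replicates 1, 2 and 3. It had a log2 fold change of 1.32 ± 0.31 (SE, adjusted p in limma = 0.021). Each celastrol library lay above each ANIT library, and celastrol replicate 2 lay nearest to the ANIT range. Fgb measured 5559, 4278 and 3657 FPKM in the ANIT libraries and 12196, 6983 and 13341 FPKM in the celastrol libraries, with a log2 fold change of 1.24 ± 0.29 (SE, adjusted p in limma = 0.021). Fgg measured 4183, 3458 and 2898 FPKM in the ANIT libraries and 10829, 6044 and 11509.99 FPKM in the celastrol libraries, with a log2 fold change of 1.39 ± 0.29 (SE, adjusted p in limma = 0.013). The ordering of libraries was the same for all 3 genes: ANIT replicate 3 was lowest and celastrol replicate 3 highest.

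The calls of Fga and Fgb were lost after quantile normalization (adjusted p of 0.11 and 0.084) and without ANIT replicate 2 (0.078 each), ANIT replicate 3 (0.069 and 0.071), celastrol replicate 1 (0.083 and 0.082) or celastrol replicate 3 (0.057 and 0.056). That of Fgg was lost after quantile normalization (adjusted p = 0.070), without ANIT replicate 2 (0.053) and without celastrol replicate 1 (0.057). The log2 fold changes of the 3 genes stayed between 0.78 and 1.68 under the alternatives.

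The 3 chains together made up 2.05 ± 0.408% of all FPKM with ANIT and 4.79 ± 1.56% with celastrol (SD, n = 3 each, two-sided exact permutation p = 0.1). By library these shares were 2.48%, 1.99% and 1.67% with ANIT and 5.36%, 3.02% and 5.98% with celastrol. With 3 libraries per group 0.1 is the lowest p this test can give, and 15 single values were tested in this way (adjusted p = 0.14 for each value at 0.1). The other 31 genes together took 1.45 ± 0.0693% and 1.72 ± 0.109% (SD, n = 3 each, exact p = 0.1). Within a library, ratios between the chains do not depend on scaling. Fgb made up 41.3%, 40.3% and 40.0% of the summed FPKM of the chains with ANIT and 37.8%, 39.4% and 38.3% with celastrol, without overlap (exact p = 0.1). The Fgg share was 31.1%, 32.6% and 31.7% with ANIT and 33.6%, 34.1% and 33.1% with celastrol, also without overlap (exact p = 0.1). The share of Fga was 27.6 ± 0.566% and 27.9 ± 1.24% (SD, n = 3 each, exact p = 0.8). The Fgb share of the chains was lower by a mean difference of -2.02 percentage points and the Fgg share higher by 1.80.

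The fibrinogen genes lie next to each other on chromosome 3, with Fgg at 83007724 to 83015049, Fga at 83026076 to 83033627 and Fgb, on the opposite strand, at 83040141 to 83049863 (mm10, GENCODE M21). The gaps are 11026 and 6513 bases and hold no other protein-coding gene. Since these neighbours rose together, the sequence just before each start is shown, with that of F9. Of the other genes that rose and had a sequence at hand, F9 alone had a match to CTGGGAA, the first motif below. The stretches are from RefSeq windows of GRCm38.p6, the assembly also called mm10, and end 1 base before the first annotated start. They were searched on both strands for CTGGGAA (the class 2 interleukin-6 response element, bound by STAT3), TTNNGNAAT and TTGCGCAA (C/EBP factors), GTTAATNAT (HNF1) and CAAAGTCCA (HNF4). Capitals mark the letters of a match.
Fga, chr3:83025903-83026075, forward strand: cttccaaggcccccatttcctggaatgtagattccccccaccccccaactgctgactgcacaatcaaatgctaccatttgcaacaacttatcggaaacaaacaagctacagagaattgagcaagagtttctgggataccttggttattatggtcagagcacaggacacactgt
Fgb, chr3:83049864-83050113, reverse strand: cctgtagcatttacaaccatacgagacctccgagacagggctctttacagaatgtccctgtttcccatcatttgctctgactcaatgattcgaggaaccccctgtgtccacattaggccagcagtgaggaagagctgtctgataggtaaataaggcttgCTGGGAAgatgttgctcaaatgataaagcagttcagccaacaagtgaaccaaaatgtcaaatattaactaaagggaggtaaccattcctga
Fgg, chr3:83007474-83007723, forward strand: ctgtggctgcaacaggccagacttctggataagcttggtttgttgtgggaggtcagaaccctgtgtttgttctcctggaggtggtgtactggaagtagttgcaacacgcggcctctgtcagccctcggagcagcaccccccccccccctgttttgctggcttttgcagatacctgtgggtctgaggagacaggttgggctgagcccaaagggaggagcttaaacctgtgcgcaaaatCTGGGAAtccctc
F9, chrX:59999214-59999463, forward strand: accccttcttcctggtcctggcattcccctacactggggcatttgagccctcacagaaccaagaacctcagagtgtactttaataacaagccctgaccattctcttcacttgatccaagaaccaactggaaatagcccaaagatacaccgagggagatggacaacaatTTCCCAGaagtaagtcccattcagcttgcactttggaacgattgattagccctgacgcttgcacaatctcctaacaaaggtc

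Windows from 250 bases before to 50 bases after the start were given for 27 of the 34 genes (29 windows). The table used here has no entry for Plg, Plau, Kng1, Plat, Thbd, Proc or Serpina10. CTGGGAA was found in 5 of these 29 windows (17.2%), those of Fgb, Fgg, F9, Kng2 and Tfpi, and in 11.1% of the 32851 windows of all genes. Of these genes, Kng2 and Tfpi did not pass. The windows of Fga, F7, F10, Pros1 and Cpb2, which rose, held no CTGGGAA. Counted from the start, it stood at -91 to -85 in Fgb and at -13 to -7 in Fgg, and on the other strand at -82 to -76 in F9. A C/EBP match in Fgb, at -8 to 1, runs past the end of the stretch shown. In Fga an HNF1 match lay on the other strand at -46 to -38 from the RefSeq start, downstream of the stretch shown, which stops at an earlier GENCODE start. HNF1 matches stood in 2 of the 29 windows (6.90%), of Fga and F13b, against 0.801% of all windows. TTNNGNAAT stood in 8 windows (27.6% against 11.5%), those of Cpb2, F13b, Fgb, Hrg, Klkb1, Kng2, Serpinc1 and Vkorc1. These include genes that rose and genes that did not pass. TTGCGCAA and CAAAGTCCA stood in none of the 29 windows (0.183% and 0.475% of all windows). A match describes letters in a window and does not show that a factor binds there.

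The vitamin K-dependent proteases F7, F9 and F10 rose by smaller amounts. F7, which binds tissue factor to start the extrinsic pathway, measured 45.4, 49.4 and 56.8 FPKM in the ANIT libraries and 75.2, 90.5 and 70.2 FPKM in the celastrol libraries. All celastrol libraries lay above all ANIT libraries, and the log2 fold change was 0.62 ± 0.15 (SE, adjusted p in limma = 0.021). F9, the protease of the intrinsic pathway missing in hemophilia B, measured 66.1, 77.3 and 74.0 FPKM in the ANIT libraries and 104.7, 103.2 and 119.8 FPKM in the celastrol libraries (0.59 ± 0.13 SE on the log2 scale, adjusted p in limma = 0.017). F10, which joins both pathways, measured 140.4, 156.2 and 154.5 FPKM in the ANIT libraries and 211.8, 229.7 and 189.0 FPKM in the celastrol libraries (0.48 ± 0.13 SE on the log2 scale, adjusted p in limma = 0.037). None of these 3 genes overlapped between groups, and for F7 and F10 celastrol replicate 2 was the highest library. The calls of F7 and F9 were lost without ANIT replicate 1 (adjusted p of 0.077 and 0.069), ANIT replicate 2 (0.084 and 0.055) or celastrol replicate 1 (0.066 and 0.058). That of F10 was lost when rescaled to TPM (adjusted p = 0.073), without the filter (0.062), without ANIT replicate 1, 2 or 3 (0.13, 0.11 and 0.091) and without celastrol replicate 1 (0.12).

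Prothrombin (F2), the precursor of thrombin, measured 732.2, 714.2 and 707.6 FPKM in the ANIT libraries and 873.0, 967.3 and 888.2 FPKM in the celastrol libraries. The groups did not overlap, but the difference did not pass (log2 fold change 0.34, 95% interval 0.03 to 0.65, adjusted p in limma = 0.10), except under median-ratio scaling (adjusted p = 0.019). F5, the cofactor of factor X, measured 55.2 to 64.9 FPKM with ANIT and 51.1 to 61.4 FPKM with celastrol. The difference on the log2 scale was -0.10 (95% interval -0.40 to 0.20, adjusted p in limma = 0.59), and it turned positive under median-ratio scaling and quantile normalization. F13b, the carrier subunit of factor XIII, which cross-links fibrin, had a log2 fold change of 0.16 (95% interval -0.24 to 0.56, adjusted p in limma = 0.53).

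**Figure D2:**
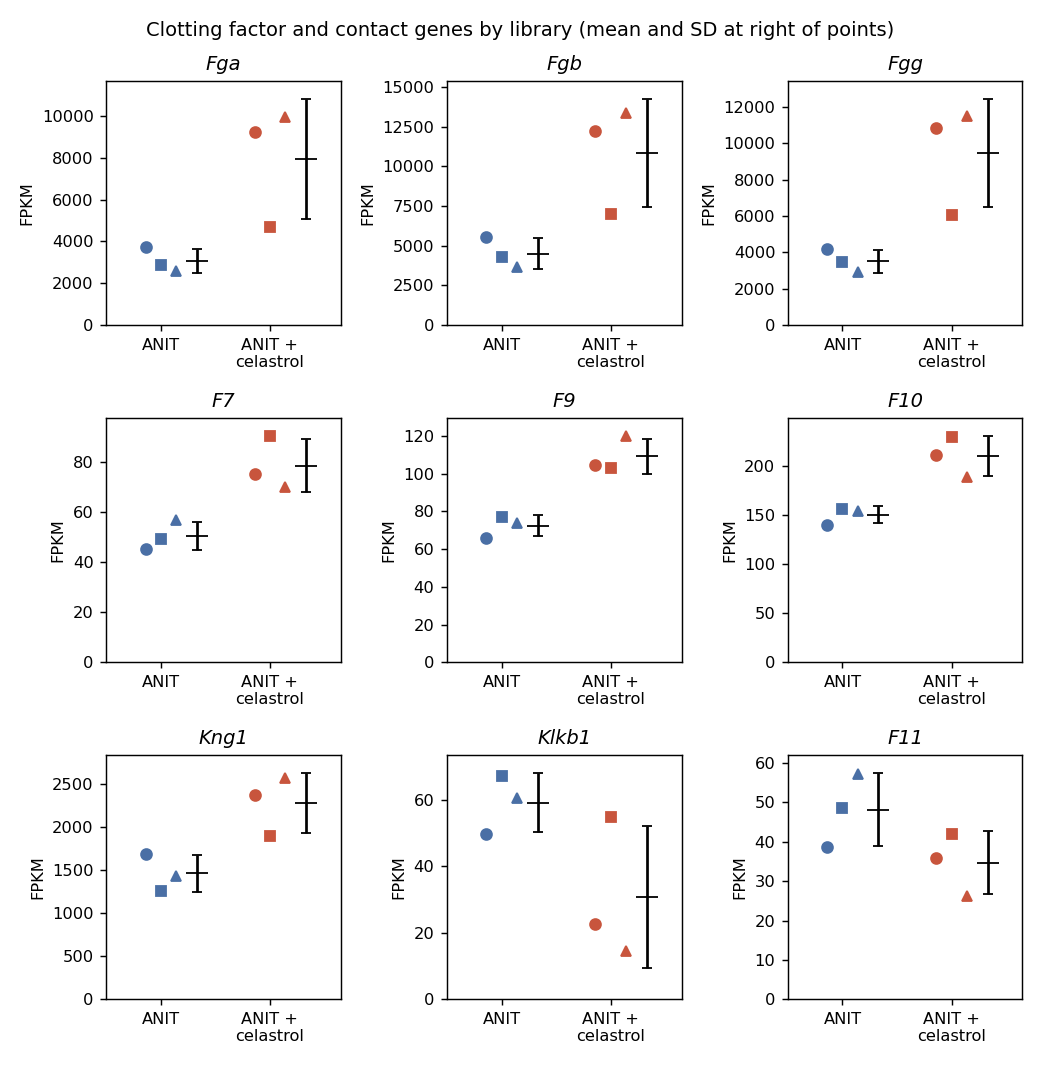
FPKM (y axis, from 0) of 9 clotting factor and contact-phase genes in each library (circle, square and triangle for replicates 1, 2 and 3), with the group mean and SD (n = 3) as bars. Fga, Fgb, Fgg, F7, F9, F10 and Kng1 show no overlap between groups, and celastrol replicate 2 lies near the ANIT libraries for Klkb1, at 54.97 FPKM.

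Contact-phase genes, whose proteins form the kallikrein-kinin system that also feeds the intrinsic pathway, did not move as a block. Kng1, a kininogen from which kallikrein releases bradykinin, measured 1694, 1259.8 and 1436 FPKM in the ANIT libraries and 2377, 1900.4 and 2567 FPKM in the celastrol libraries. It rose by 0.64 on the log2 scale (SE 0.19, adjusted p in limma = 0.045) and its groups did not overlap. Its neighbour and close paralog Kng2 measured 375.0, 298.2 and 337.0 FPKM in the ANIT libraries and 406.7, 348.2 and 443.4 FPKM in the celastrol libraries, and did not pass (log2 fold change 0.25, 95% interval -0.12 to 0.61, adjusted p in limma = 0.28). The ratio of Kng1 to Kng2 within a library, taken after the values had been seen, was 4.52, 4.22 and 4.26 with ANIT and 5.84, 5.46 and 5.79 with celastrol (exact permutation p = 0.1, the smallest possible). How reads of these 2 paralogs were divided is not stated. The Kng1 call was lost after quantile normalization (adjusted p = 0.20), when rescaled to TPM (0.063), without the filter (0.081), without ANIT replicate 1, 2 or 3 (0.065, 0.17 and 0.12) and without celastrol replicate 1 or 3 (0.14 and 0.11).

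Klkb1, which encodes plasma prekallikrein, had the lowest log2 fold change of the 28 genes and yet did not pass. It measured 49.7, 67.2 and 60.6 FPKM with ANIT and 22.8, 55.0 and 14.6 FPKM in celastrol replicates 1, 2 and 3. Celastrol replicate 2 lay inside the ANIT range and the other celastrol libraries far below it. The log2 fold change was -1.12 ± 0.45 (SE, adjusted p in limma = 0.12), and without celastrol replicate 2 it was -1.63 and passed (adjusted p = 0.0038). F11, the neighbouring paralog that encodes factor XI, measured 38.7, 48.4 and 57.1 FPKM in the ANIT libraries and 35.8, 42.0 and 26.2 FPKM in the celastrol libraries, with overlap (log2 fold change -0.47, 95% interval -0.95 to 0.01, adjusted p in limma = 0.13). Rescaled to TPM, F11 came just under the threshold (-0.60, adjusted p = 0.050 after rounding). F12, which starts the contact phase on charged surfaces, differed by 0.14 on the log2 scale (95% interval -0.18 to 0.46, adjusted p in limma = 0.47).

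Both genes of the vitamin K cycle lay lower with celastrol without overlap, as did 36.6% of all tested genes, whose median log2 fold change was -0.17. Ggcx, the carboxylase, measured 18.7, 20.7 and 19.2 FPKM in the ANIT libraries and 17.7, 17.0 and 18.3 FPKM in the celastrol libraries (difference of log2 values -0.14, adjusted p in limma = 0.32). This direction turned under median-ratio scaling and quantile normalization. Vkorc1, the epoxide reductase that is the target of warfarin, measured 259.2, 259.1 and 214.1 FPKM in the ANIT libraries and 162.3, 203.0 and 124.0 FPKM in the celastrol libraries. The groups did not overlap but the difference did not pass (-0.60 ± 0.20 SE on the log2 scale, adjusted p in limma = 0.061). Rescaling to TPM brought it past the threshold (adjusted p = 0.024) and so did leaving out celastrol replicate 2 (0.013). The paralog Vkorc1l1, which was not among the 34 genes, fell from 15.0 ± 1.70 to 8.59 ± 0.231 FPKM (SD, n = 3 each), or by -0.73 ± 0.11 on the log2 scale (SE, adjusted p in limma = 0.0039). Among the 7 genes whose proteins need this carboxylation (F2, F7, F9, F10, Proc, Pros1 and Proz), a grouping made after the values were seen, 4 rose and none fell, and the libraries did not overlap for 6, all higher with celastrol. Over all tested genes, 4.41% rose and 8.35% were higher without overlap.

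Serpina10 had the largest fold change of the 28 genes. It encodes the protein Z-dependent protease inhibitor, which blocks activated factor X on membranes with protein Z as its cofactor. It measured 144.4, 162.5 and 190.6 FPKM in the ANIT libraries and 596.0, 336.3 and 494.5 FPKM in the celastrol libraries, a 2.87-fold higher mean. The log2 fold change was 1.48 ± 0.23 (SE, adjusted p in limma = 0.0050), and over the 12 alternatives the adjusted p ran from 0.0012 to 0.025. Proz, the gene of the cofactor, measured 100.05, 118.8 and 119.2 FPKM in the ANIT libraries and 129.3, 144.2 and 122.9 FPKM in the celastrol libraries. The Proz groups did not overlap, but it did not pass (log2 fold change 0.23, 95% interval -0.09 to 0.54, adjusted p in limma = 0.24), except under median-ratio scaling and quantile normalization (adjusted p of 0.038 and 0.034). The ratio of inhibitor to cofactor transcript was 1.44, 1.37 and 1.60 with ANIT and 4.61, 2.33 and 4.02 with celastrol (exact permutation p = 0.1, the smallest possible).

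In the protein C system the gene of the cofactor passed and that of the protease did not. Pros1, which encodes protein S, the cofactor of activated protein C, measured 21.5, 22.6 and 18.7 FPKM in the ANIT libraries and 38.0, 36.1 and 39.0 FPKM in the celastrol libraries. All celastrol libraries, replicate 2 included, lay between 36.1 and 39.0 FPKM and above every ANIT library. The log2 fold change was 0.82 ± 0.11 (SE, adjusted p in limma = 0.0032), with adjusted p from 0.0026 to 0.020 over the alternatives. Proc, which encodes protein C itself, measured 204.0, 202.8 and 216.3 FPKM in the ANIT libraries and 188.4, 287.0 and 166.4 FPKM in the celastrol libraries. Celastrol replicate 2 was above and the other celastrol libraries below the ANIT range, and the log2 fold change was 0.00 (95% interval -0.48 to 0.49, adjusted p in limma = 0.99). The ratio of Pros1 to Proc was 0.106, 0.112 and 0.0863 with ANIT and 0.202, 0.126 and 0.234 with celastrol (exact permutation p = 0.1).

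The 2 heparin-dependent inhibitors lay lower with celastrol without overlap, as did 36.6% of all tested genes. Serpind1, heparin cofactor II, measured 259.1, 298.3 and 311.8 FPKM in the ANIT libraries and 170.1, 235.9 and 149.2 FPKM in the celastrol libraries, and fell by 0.67 on the log2 scale (SE 0.19, adjusted p in limma = 0.041). Its call did not hold under median-ratio scaling (adjusted p = 0.060), without the filter (0.075), without ANIT replicate 1, 2 or 3 (0.070, 0.13 and 0.11) and without celastrol replicate 1 or 3 (0.14 and 0.10). Serpind1 lies inside Pi4ka on the opposite strand (chromosome 16, 17331371 to 17343575), and the strand setting of the counts is not given. Serpinc1, antithrombin, the main inhibitor of thrombin, measured 885.8, 961.4 and 954.2 FPKM in the ANIT libraries and 787.2, 870.4 and 720.6 FPKM in the celastrol libraries. Its groups did not overlap and it did not pass (log2 fold change -0.24, 95% interval -0.58 to 0.10, adjusted p in limma = 0.25). Under median-ratio scaling its log2 fold change was -0.058 (adjusted p in limma = 0.75).

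Genes typical of endothelium and other cells were low in these whole-liver libraries, where fewer cells of a type and less RNA per cell cannot be told apart. Thbd, thrombomodulin, the endothelial receptor that turns thrombin into an activator of protein C, measured 1.20, 1.63 and 2.0 FPKM in the ANIT libraries and 0.65, 0.85 and 0.82 FPKM in the celastrol libraries. The groups did not overlap. Because Thbd reached 1 FPKM in the ANIT libraries alone, it entered the test only through the group where it is high, and its difference of -0.55 ± 0.14 on the log2 scale (SE, adjusted p in limma = 0.028) is given as a description. The fit without the filter gave an adjusted p in limma of 0.046. With the filter, the threshold was not passed under median-ratio scaling (adjusted p = 0.066), after quantile normalization (0.054) or without celastrol replicate 1 or 3 (0.10 and 0.059), and without any 1 ANIT library the gene no longer reached the filter. Tfpi, the tissue factor pathway inhibitor, measured 0.53, 1.21 and 1.12 FPKM in the ANIT libraries and 1.66, 2.17 and 0.85 FPKM in the celastrol libraries, with overlap (adjusted p in limma = 0.26). The 8 endothelial markers summed to 32.6 to 54.9 FPKM with ANIT and 43.8 to 77.1 FPKM with celastrol. Of these markers 1, Stab2, rose and none fell, and their part in the result for Thbd was not tested.

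The remaining 4 of the low genes with a role in clotting or its control were read from the fit without the filter, and none passed. F3, tissue factor, measured 1.01, 0.85 and 0.88 FPKM in the ANIT libraries and 0.51, 0.82 and 0.35 FPKM in the celastrol libraries, without overlap (adjusted p in limma = 0.18). F13a1, the catalytic subunit of factor XIII, made mainly by macrophages and platelet precursors, measured 0.39, 1.35 and 1.49 FPKM in the ANIT libraries and 0.43, 0.30 and 0.48 FPKM in the celastrol libraries (adjusted p in limma = 0.18). The 7 macrophage markers summed to 83.9 to 208.5 FPKM and 147.1 to 217.7 FPKM in the same groups, and the 6 platelet markers to at most 2.81 FPKM, with Gp9 and Gp1bb at 0 in some libraries. F8, factor VIII, which liver sinusoidal endothelium makes, lay between 0.53 and 0.89 FPKM in every library (adjusted p in limma = 0.49). Procr, the endothelial protein C receptor, lay between 0.46 and 1.12 FPKM (adjusted p in limma = 0.94).

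**Figure D3:**
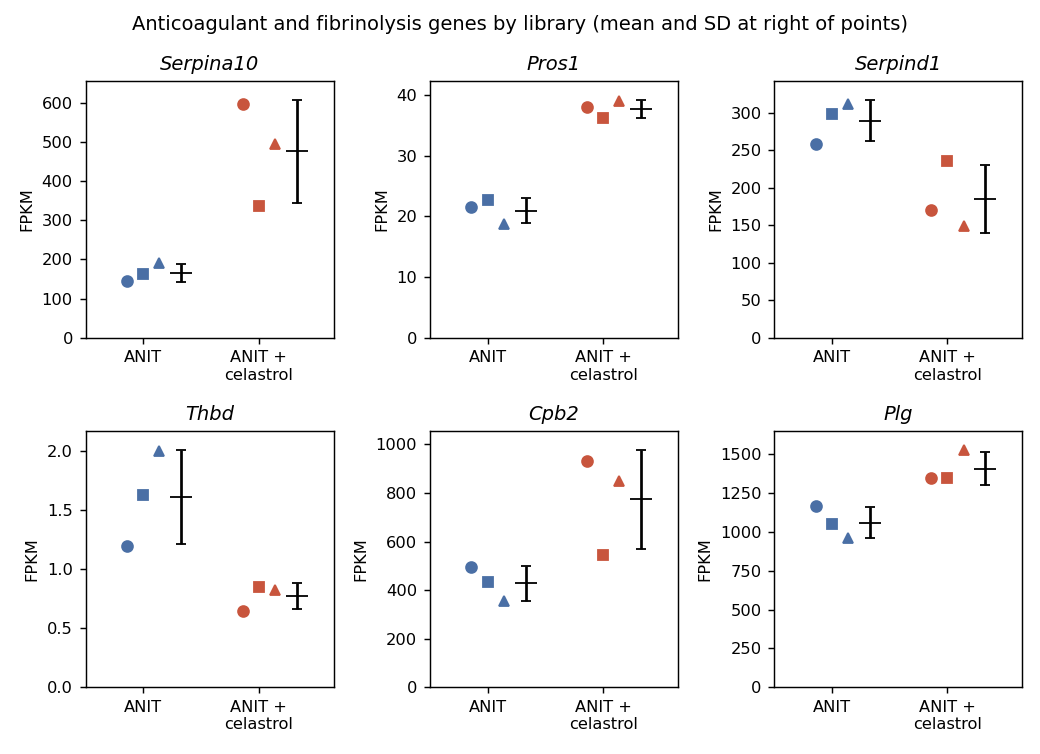
FPKM (y axis, from 0) of 4 anticoagulant genes and 2 fibrinolysis genes in each library (circle, square and triangle for replicates 1, 2 and 3), with the group mean and SD (n = 3) as bars. Serpina10, Pros1, Cpb2 and Plg lie higher and Serpind1 and Thbd lower with celastrol, without overlap. Plg did not pass the test, and Thbd was tested only through its ANIT libraries.

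All 4 tested fibrinolysis genes lay higher with celastrol in every library, and 1 passed, against 8.35% and 4.41% of all tested genes. Cpb2 encodes a carboxypeptidase, also called TAFI, that trims plasminogen-binding sites from fibrin and so slows its breakdown. It measured 497.1, 434.7 and 354.6 FPKM in the ANIT libraries and 929.9, 543.5 and 849.6 FPKM in the celastrol libraries, and rose by 0.83 on the log2 scale (SE 0.24, adjusted p in limma = 0.040). This call was lost after quantile normalization (adjusted p = 0.084), without the filter (0.076), without ANIT replicate 1, 2 or 3 (0.060, 0.11 and 0.12) and without celastrol replicate 1 or 3 (0.14 and 0.098). Plg, plasminogen, measured 1162, 1048 and 962.2 FPKM in the ANIT libraries and 1345, 1346 and 1527 FPKM in the celastrol libraries (difference of log2 values 0.41, 95% interval 0.06 to 0.77, adjusted p in limma = 0.085). Median-ratio scaling brought it past the threshold (adjusted p = 0.037) and so did leaving out celastrol replicate 2 (0.046).

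Serpinf2, alpha-2-antiplasmin, the plasma inhibitor of plasmin, measured 474.2, 440.3 and 458.2 FPKM in the ANIT libraries and 594.1, 539.1 and 539.05 FPKM in the celastrol libraries (difference of log2 values 0.28, 95% interval -0.02 to 0.59, adjusted p in limma = 0.15). Median-ratio scaling brought it past the threshold (adjusted p = 0.044). Hrg, a histidine-rich glycoprotein that binds plasminogen and heparin, measured 783.4, 657.2 and 607.3 FPKM in the ANIT libraries and 873.3, 831.7 and 1296 FPKM in the celastrol libraries (difference of log2 values 0.53, 95% interval 0.04 to 1.02, adjusted p in limma = 0.10). It passed without celastrol replicate 2 (adjusted p = 0.047). The plasminogen activators were hardly present: Plat, the tissue type, lay between 0.06 and 0.15 FPKM and Plau, the urokinase type, between 0.04 and 0.35 FPKM. Neither passed in the fit without the filter (adjusted p in limma of 0.12 and 0.78).

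Across the 28 genes the celastrol libraries were not equally far from ANIT. Celastrol replicate 2 was the celastrol library closest to the ANIT mean for 17 of the 28 (60.7%), and for 48.7% of all tested genes. These 17 include the 3 fibrinogen chains, Klkb1, Serpina10, Cpb2, Vkorc1 and Serpind1. For the other 11, among them F2, F7, F10 and Plg, it was not the closest. The map of values by library shows this as a paler column for fibrinogen and Klkb1. Pros1 is also among the 17, but its celastrol libraries lay close together, at 38.0, 36.1 and 39.0 FPKM. F10 is among the 11.

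**Figure D4:**
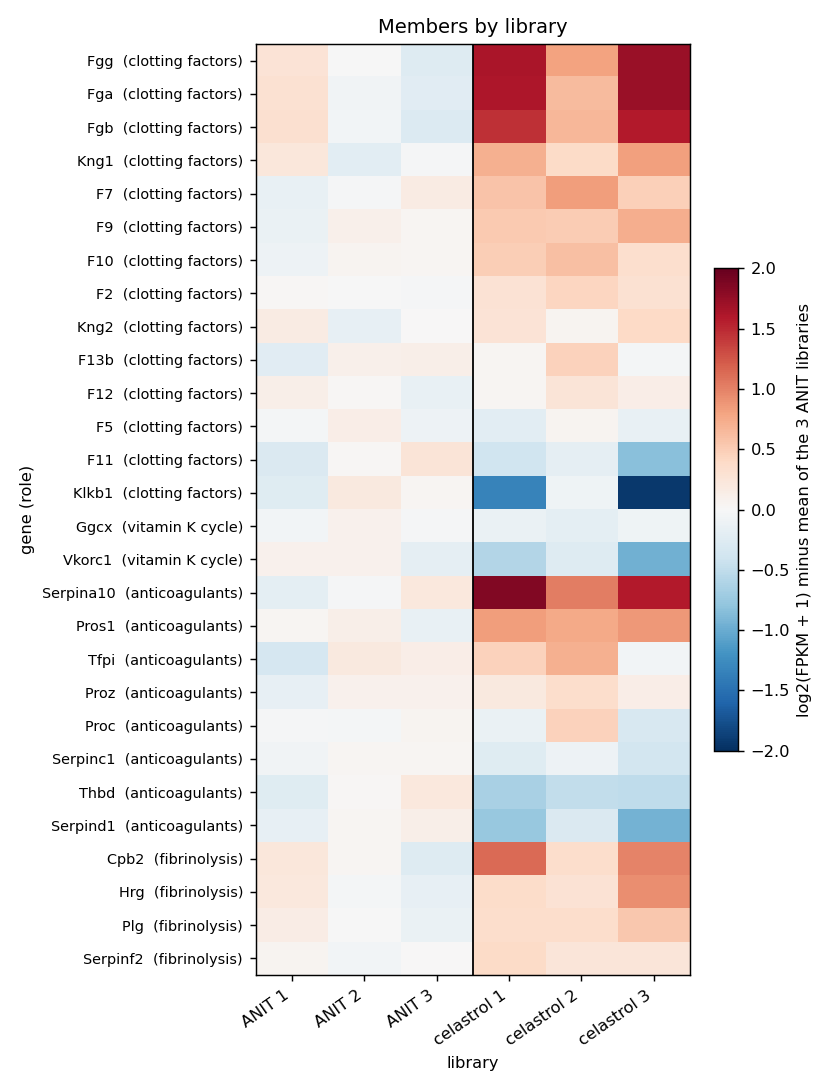
Values of the 28 tested genes (rows, grouped by role) in the 6 libraries (columns), as log2(FPKM + 1) minus the mean of the 3 ANIT libraries. Red is higher and blue lower, and celastrol replicate 2 is paler than celastrol replicates 1 and 3 for fibrinogen, Klkb1 and Serpina10.

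Other genes of the 34 are also neighbours on a chromosome, and some of these clusters held both genes that passed and genes that did not. F7 (13026034 to 13035809), F10 (13037308 to 13056676) and Proz (13060914 to 13076026) stand in a row on chromosome 8, with gaps of 1498 and 4237 bases. F7 and F10 rose and Proz did not pass. The ratio of F7 to Proz within a library was 0.454, 0.416 and 0.477 with ANIT and 0.582, 0.627 and 0.571 with celastrol, and that of F10 to Proz 1.40, 1.32 and 1.30 and then 1.64, 1.59 and 1.54 (exact permutation p = 0.1 each). Klkb1 and F11, 4657 bases apart on the same chromosome, were both on the lower side without passing. The ratio of Klkb1 to F11 was 1.28, 1.39 and 1.06 with ANIT and 0.636, 1.31 and 0.558 with celastrol (exact permutation p = 0.3). On chromosome 16, Hrg, Kng2 and Kng1 lie within 131007 bases, and of these Kng1 alone passed. Some of the genes overlap another annotated gene, whose reads may be counted with theirs. On the same strand these are Vkorc1 (Gm21974), Klkb1 (Gm45753), Cpb2 (Gm44482, Gm18147), Kng2 (Gm6493), F5 (Gm16588), F8 (Gm8522) and Serpinc1 (Gm37729). On the opposite strand they are Fgg (Gm30097), Plg (Slc22a3), Serpinc1 (Zbtb37, Gm37072), Serpind1 (Pi4ka, Gm24927), F5 (Gm16548), F8 (Fundc2, Gm6039) and F13a1 (Gm49144, Gm30489).

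A list of 21 related hemostasis genes outside the 34, chosen with earlier results of these data known, gave 15 tested genes, of which 2 rose and 5 fell, where 4.41% and 20.6% of all tested genes did so. Their median log2 fold change was -0.11, beside -0.17 for all tested genes. Anxa2 and S100a10 form the cell-surface receptor on which plasminogen is activated, and both fell. Anxa2 measured 15.6, 24.3 and 42.0 FPKM in the ANIT libraries and 3.89, 4.92 and 3.08 FPKM in the celastrol libraries (-2.42 ± 0.34 SE on the log2 scale, adjusted p in limma = 0.0057). S100a10 measured 166.7, 155.7 and 162.0 FPKM in the ANIT libraries and 70.7, 69.1 and 60.9 FPKM in the celastrol libraries (-1.26 ± 0.12 SE on the log2 scale, adjusted p in limma = 0.0010). Plaur, the urokinase receptor, measured 1.62 ± 0.541 and 0.630 ± 0.173 FPKM (SD, n = 3 each, adjusted p in limma = 0.027, and 0.046 without the filter). Plaur too reached 1 FPKM in the ANIT libraries alone, so its count among the 5 genes that fell carries no weight of its own. Without any 1 of these libraries it was not tested. Under median-ratio scaling (adjusted p = 0.071), after quantile normalization (0.063) and without celastrol replicate 1 (0.075) it did not pass.

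**Figure D5:**
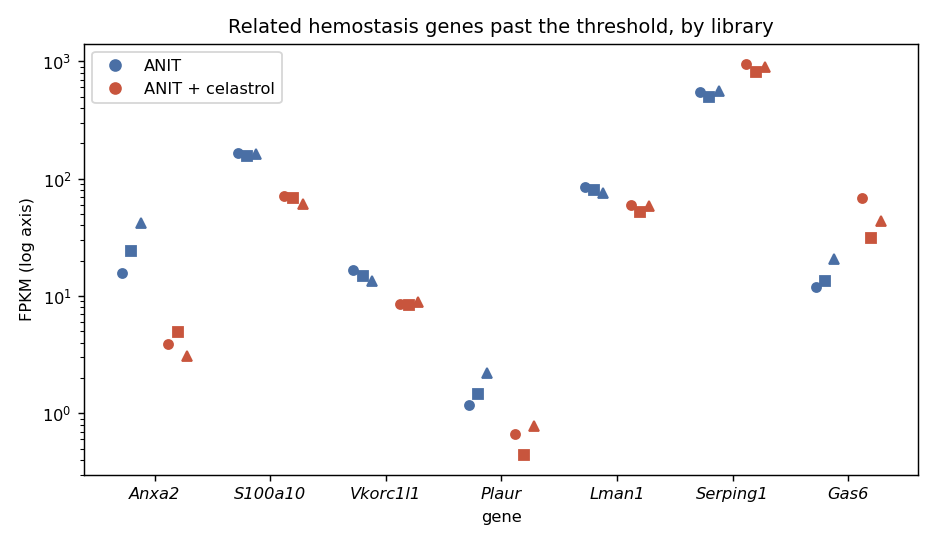
FPKM (y axis, log scale) of the 7 related hemostasis genes past the threshold (x axis), in the 3 ANIT libraries (blue) and the 3 ANIT plus celastrol libraries (red), with circle, square and triangle for replicates 1, 2 and 3. Anxa2 lies at 15.6 FPKM or above with ANIT and at 4.92 FPKM or below with celastrol.

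Vkorc1l1, given above, also fell, as did Lman1. Lman1 is part of the receptor that carries factors V and VIII out of the endoplasmic reticulum, and went from 80.1 ± 4.66 to 56.7 ± 3.84 FPKM (SD, n = 3 each, log2 fold change -0.49, adjusted p in limma = 0.023). Its call did not hold under median-ratio scaling (adjusted p = 0.13), after quantile normalization (0.24), without ANIT replicate 1, 2 or 3 (0.087, 0.093 and 0.052) and without celastrol replicate 1 (0.070). Its partner Mcfd2 did not pass (log2 fold change -0.25, adjusted p in limma = 0.24). Serping1, the C1 inhibitor, which also blocks kallikrein and factor XII, rose from 535.6 ± 32.6 to 887.8 ± 72.5 FPKM (SD, n = 3 each, log2 fold change 0.73, adjusted p in limma = 0.011). Without ANIT replicate 2 or celastrol replicate 1 it did not pass (adjusted p of 0.062 and 0.057). Gas6, a vitamin K-dependent relative of protein S, measured 12.1, 13.6 and 20.9 FPKM in the ANIT libraries and 68.5, 31.1 and 43.6 FPKM in the celastrol libraries (difference of log2 values 1.53, adjusted p in limma = 0.016). It did not pass without ANIT replicate 1 or 2 or celastrol replicate 3 (adjusted p of 0.053, 0.061 and 0.052). Of the 6 genes below the filter, F2rl1, the protease-activated receptor PAR2, measured 0.42, 0.42 and 0.81 FPKM in the ANIT libraries and 0.09, 0.07 and 0.08 FPKM in the celastrol libraries. It passed in the fit without the filter (adjusted p in limma = 0.027), where 1676 of 18253 genes were lower and 413 higher. Values this low rest on few reads.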

How the data were processed

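Total RNA of frozen livers was sequenced in 6 libraries, and groups and replicate numbers come from the library titles. The authors deposited 1 table of FPKM per gene symbol for each library, per the file headers. HISAT2, featureCounts and the build mm10 are named in the submitters' processing notes. Versions, gene models, strand setting and the step from counts to FPKM are not given in the sources at hand. Reads of close paralogs and overlapping genes are therefore uncertain. Symbols absent from a library were set to 0, and 2 symbols that had been turned into dates and occurred repeatedly were left out. Read totals were estimated from the spacing of values of 0.1 to 1 FPKM in genes of 400 to 2500 bases with a single transcript. No counts were rebuilt.

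The comparison was fitted with limma 3.58.1 in R 4.3.3 on log2(FPKM + 1), with group as the only term, empirical Bayes trend and robust variance, over genes that reached 1 FPKM in 3 or more libraries. P-values were adjusted by Benjamini-Hochberg over all tested genes with a threshold of 0.05, and the 6 genes below the filter were read from a fit without it. Fold changes on this scale understate those of genes near 1 FPKM. Single values per library were compared by exact two-sided permutation tests with scipy 1.17.1. On data simulated for this comparison (5 simulations, a mean of 10432 genes tested, 200 changed), 75.1% of the 2-fold changes and 97.2% of the 4-fold changes were recovered, and 5.08% of calls were false. The simulated noise was independent for each gene, without a shift common to many genes of a library. In the data 25.0% of tested genes passed, so the simulated rates need not hold for them. The alternatives were median-ratio scaling, quantile normalization, rescaling to TPM, a pseudocount of 0.1, no filter, the replicate number as a block, and each library left out in turn. The 34 genes, their roles and the other lists were chosen with earlier results of these data known. All 34 genes were to be described, and genes of the related list were to be named where they passed. One gene of that list is not reported here, and the list's counts leave it out. The ratios of partner genes, the vitamin K-dependent grouping, and the genes of the related list named without passing were chosen after their values were seen. Gene positions are from GENCODE M21 and promoter windows from RefSeq, GRCm38.p6, which is mm10.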

Additional observations from a re-analysis of the deposited data

How the results depend on the processing

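Of the 333 values of the 28 tested genes under the alternatives, 261 kept direction and side of the threshold, 52 lost a call, 12 gained one and 8 changed direction. The number of genes higher with celastrol, 10, was 6 after quantile normalization and between 2 and 12 with 1 library left out. The number lower, 2, was 0 under median-ratio scaling, 1 after quantile normalization, 4 when rescaled to TPM, 1 without the filter and 0 to 4 with 1 library left out. Over all tested genes 467 were higher and 2185 lower. These counts were 793 and 1170 under median-ratio scaling and 873 and 952 after quantile normalization, with 3813 lower when rescaled to TPM, and they ran from 196 to 476 and from 911 to 3334 with 1 library left out. Median-ratio scaling moved the median over all tested genes (log2) from -0.17 to -0.02, quantile normalization to 0.01 and rescaling to TPM to -0.30, and the cause was not tested. The changes of direction were in genes near 0. F5 went to 0.076 under median-ratio scaling and 0.17 after quantile normalization, and Ggcx to 0.034 and 0.15. Proc went to -0.12 when rescaled to TPM, -0.0097 and -0.014 without ANIT replicates 1 and 2 and -0.23 without celastrol replicate 2, and ran up to 0.16 without celastrol replicate 3. The fibrinogen share of the FPKM sum differed by 2.74 percentage points, and by 2.14 to 3.62 with 1 library left out.

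With the replicate number as a block, 9 genes were higher and 3 lower. The F10 call was lost (adjusted p = 0.061) and Vkorc1 passed (adjusted p = 0.040). The numbers were not taken to pair the libraries, since deviations from the group means correlated at 0.15, 0.23 and -0.092 for numbers 1, 2 and 3, and ANIT replicates 1 and 3 correlated best with another number. An FPKM table carries no counts, so genes well below 1 FPKM, such as Plat and Plau, rest on few reads, which limits the differences that can be detected in them. The reads behind F3 and F8, which lay nearer to 1 FPKM, depend on transcript length and were not worked out.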

Other observations

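A2m, a broad protease inhibitor of plasma that also binds thrombin and plasmin, is a gene of the related list whose celastrol libraries differed widely among themselves. It measured 3.98, 0.71 and 0.53 FPKM in ANIT replicates 1, 2 and 3 and 43.7, 0.34 and 25.7 FPKM in celastrol replicates 1, 2 and 3. Celastrol replicates 1 and 3 lay above and celastrol replicate 2 below every ANIT library, and the gene did not pass (2.31 ± 1.39 SE on the log2 scale, adjusted p in limma = 0.27). It was chosen after its values were seen. Tfpi2, a relative of the tissue factor pathway inhibitor, measured 21.3 ± 1.998 FPKM with ANIT and 21.4 ± 1.26 FPKM with celastrol (SD, n = 3 each), with a difference of 0.01 on the log2 scale (95% interval -0.25 to 0.27, adjusted p in limma = 0.95). Adamts13, which trims von Willebrand factor, differed by 0.10 on the log2 scale (95% interval -0.28 to 0.48, adjusted p in limma = 0.68). Habp2, Masp1, F2r and Tgm2 also did not pass (adjusted p in limma of 0.58, 0.68, 0.18 and 0.20).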
